A study of Mus musculus with 18 samples.

Results

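The T cell receptor rows of the table were examined in CD3+ tumor-infiltrating lymphocytes (TILs). They were all rows whose symbol starts with Trav, Traj, Trbv, Trbj, Trgv, Trdv, Trdc or Tcrg-, and they numbered 210 of the 37236 rows of the table. Reads were found on 94 of them, 58 V segments, 31 J segments and 5 constant genes of the gamma and delta chains. The cells came from subcutaneous B16-OVA tumors, a mouse melanoma line carrying the model antigen ovalbumin, taken at d14 after injection of 500000 tumor cells. The hosts were C57BL/6 wild-type mice (Nr2f6+/+) or mice lacking the nuclear receptor gene Nr2f6 (Nr2f6-/-). From d3 on they received 0.5 mg of a PD-L1 blocking antibody (αPD-L1, clone 10F.9G2) or of its IgG2b control. With IgG2b there were 3 samples of each genotype, and with αPD-L1 there were 6 of each. T cells were enriched with CD4 and CD8 beads before the CD3 sort, a step that selects cells with a co-receptor. The labels name no receptor transgene in the hosts.

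A T cell receptor chain is built in the thymus by joining gene segments. Alpha and gamma chains join a V to a J segment, and beta and delta chains add a D segment between them, after which the joined exon is spliced to a constant gene. A clone keeps its segments in use, but many clones can share a V or J segment. A segment row alone therefore does not mark a clone, and a constant gene is shared by many clones. A T cell carries alpha and beta chains or gamma and delta chains. Some populations use a fixed alpha chain. Invariant NKT cells join Trav11 to Traj18, and MAIT cells join Trav1 to Traj33. The kit used here primes at the poly(A) tail and reads the 3′ end of a transcript, where a rearranged receptor carries its constant gene. V and J segments lie upstream of that end, so a segment without reads was not shown to be unused. Nor was it tested whether reads on a segment came from a joined receptor transcript.

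The J segments are short enough to be shown whole. The 4 Traj rows below include the 2 that held most reads (Traj18 and Traj27), Traj4, which had reads in 4 samples, and Traj33 of MAIT cells, which had none. They are given 5′ to 3′ on the plus strand as in GENCODE release 21 (GRCm38, the assembly of mm10). Capitals mark the start of the Phe-Gly-X-Gly motif that J segments share, searched on both strands as TTTGG or TTCGG, then any 4 letters, then GG.
Traj18, chr14:54200777-54200842: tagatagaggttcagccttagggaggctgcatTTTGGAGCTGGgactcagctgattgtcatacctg
Traj27, chr14:54192303-54192361: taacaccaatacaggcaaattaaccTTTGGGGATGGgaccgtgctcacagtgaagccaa
Traj4, chr14:54216291-54216353: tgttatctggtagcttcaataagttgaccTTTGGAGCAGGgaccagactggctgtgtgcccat
Traj33, chr14:54185358-54185414: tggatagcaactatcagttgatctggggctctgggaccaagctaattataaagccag
The motif was found in 42 of 51 Traj rows (82.4%) and in 11 of 13 Trbj rows (84.6%), never on the reverse strand. It was found in 19 of the 22 Traj rows with reads. These letters were not in Traj33, which is a statement about this search only.

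Nr2f6 itself was listed at 0 in all 9 Nr2f6-/- samples and between 20.2 and 201 normalized counts in the 9 Nr2f6+/+ samples. A sample held 12473391 to 18609482 gene reads. T cell identity was clear in every sample, with Cd3e between 7381 and 15541 and Trac, the constant gene of the alpha chain, between 11961 and 24633 normalized counts. By their library numbers the samples came in 2 runs of numbers, called library sets here, of 12 and 6 libraries, and all 6 of the latter were αPD-L1 samples. Macrophage and monocyte markers differed between treatments, with Lyz2 and 1 other of the 12 listed genes lower with αPD-L1 past the test in each genotype. The summed level of all 12 listed genes was between 7590 and 17021 with IgG2b and between 924 and 5939 with αPD-L1, without overlap, and its part in the treatment comparisons was not tested.

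Receptor segment reads were few and unevenly spread. In a sample, 13 to 31 of the 210 rows had any read, with a median of 19. Of the 94 rows with reads, 34 had them in 1 sample, 46 in 2 to 5 samples, 11 in 6 to 17 samples and 3 in all 18. The median row drew 83.8% of its reads from a single sample. Among rows with a mean of 10 to 150 normalized counts, the median was 41.1% in the top sample for 19 receptor rows and 24.0% for 4284 rows of all kinds. These sets were not matched in level within that range. Some receptor rows, such as Trbv3 with reads in 2 samples, entered it through a few samples. Molecular identifiers were not part of these values, so the reads of a row are not independent molecules, and reads copied from few molecules cannot be told apart from many transcripts.

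**Figure D1:**
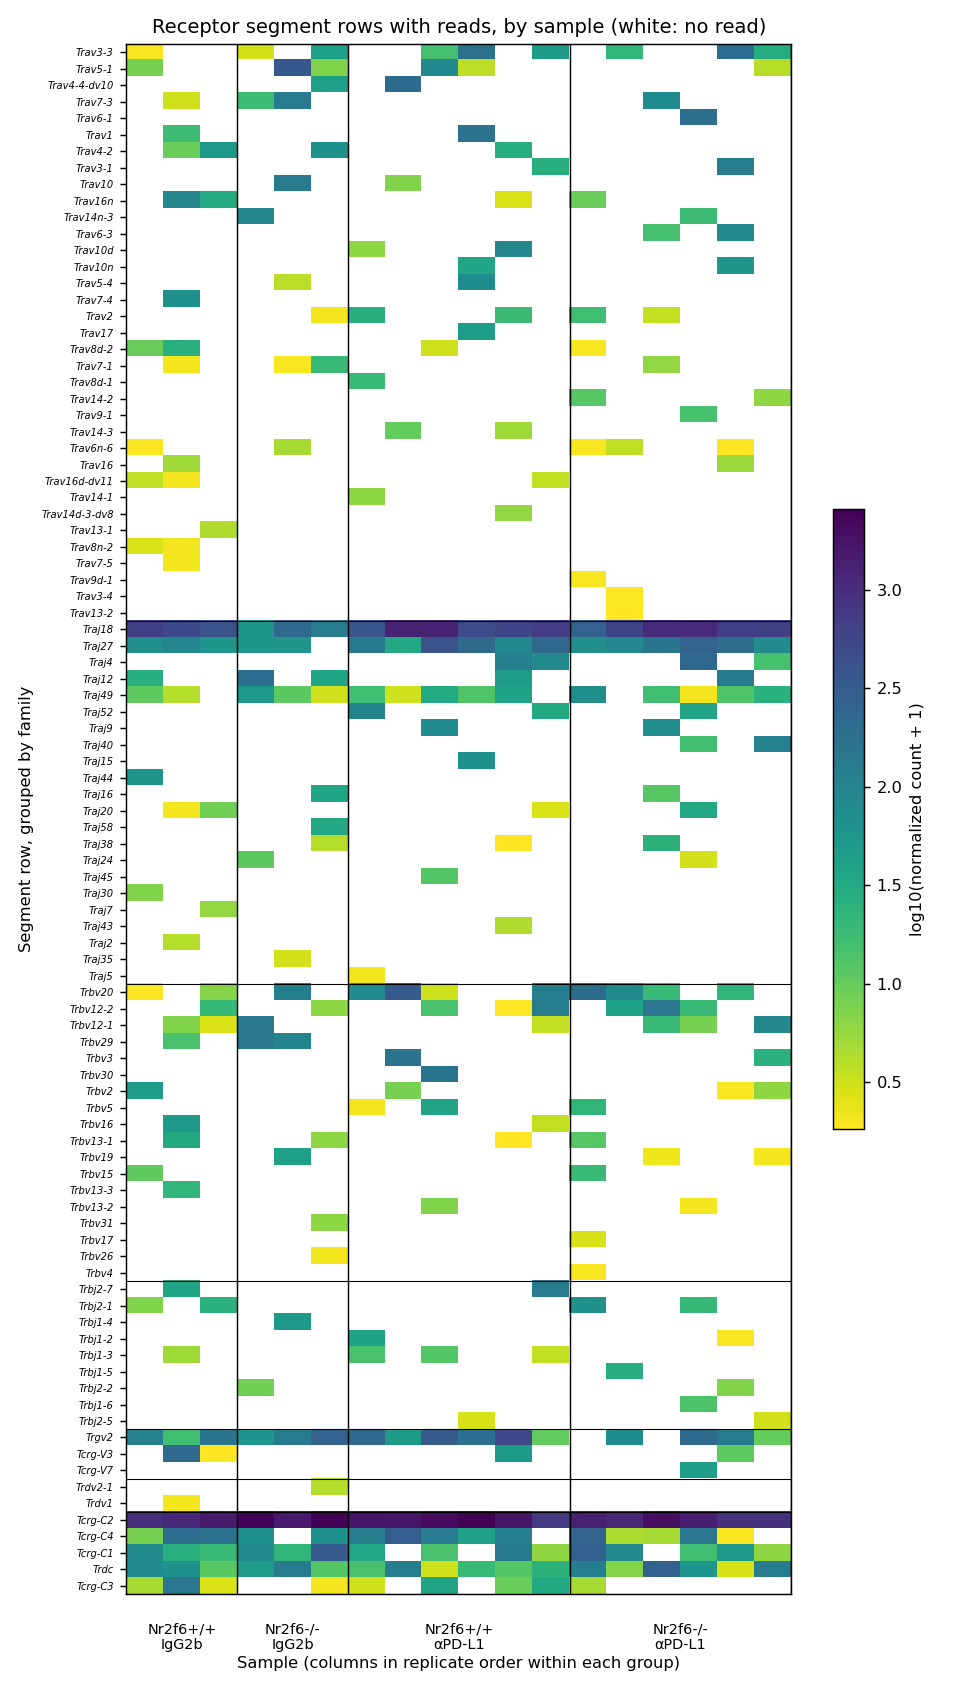
Normalized counts of the 94 receptor rows with reads (rows, grouped by family) in the 18 samples (columns, in replicate order within each group), as log10(normalized count + 1), with white for no read. Traj18, Tcrg-C2 and Trdc were filled in every sample, and most other rows were filled in 1 to 5 samples.

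The alpha chain V rows covered least of their locus. Reads fell on 35 of 108 Trav rows, against 18 of 22 Trbv, 22 of 51 Traj and 9 of 13 Trbj rows. The mouse alpha locus carries repeated blocks of V genes, named with d or n. Of 34 d copies 6 had reads, of 28 n copies 5, and of the 46 other Trav rows 24. In 58 of 108 Trav rows the nearest other Trav transcript was over 95% identical, so reads of these rows may have been assigned to a copy. Of the 35 Trav rows with reads, 11 had such a copy. No Trbv row had such a copy. The summed Trav level was 0.0987% to 3.65% of the Trac level, and the summed Trbv level 0% to 0.662% of the summed Trbc1 and Trbc2 level. The highest Trav row of a sample took a median of 61.1% of its Trav reads, with a range of 35.6% to 92.7%.

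The Trav rows with the highest mean normalized count were each carried by a few samples. Trav3-3 had 9 samples with reads, and its highest values were 187 in a Nr2f6-/- αPD-L1 sample and 174 in a Nr2f6+/+ αPD-L1 sample. Trav5-1 reached 345 in a Nr2f6-/- IgG2b sample and 85.7 in a Nr2f6+/+ αPD-L1 sample, and was at 7.03 or less elsewhere. Trav4-4-dv10 had reads in 2 samples, at 195 and 40.6 normalized counts, Trav7-3 in 4 samples, at 125 and 75.3 in the highest, and Trav6-1 in 1, at 179.8. Trav7-3 is 99.0% identical to its d copy. No Trav row was present in all samples of any group.

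Among the beta chain V rows, Trbv20 had the highest mean, 52.1 normalized counts, with reads in 11 of 18 samples. In Nr2f6+/+ IgG2b it was listed at 0.879, 0 and 5.80, and in Nr2f6-/- IgG2b at 0, 110 and 0. In Nr2f6+/+ αPD-L1 the lowest, median and highest values were 0, 38.1 and 313, and in Nr2f6-/- αPD-L1 0, 19.5 and 197. All 4 groups overlapped. Trbv30 (153 in 1 sample), Trbv3 (161 and 24.1 in 2 samples) and the 3 highest Trbj rows, Trbj2-7, Trbj2-1 and Trbj1-4, with means of 9.16 or less, had reads in 1 to 4 samples each. One αPD-L1 sample of Nr2f6+/+ mice had no Trbv read, although its Trbc1 and Trbc2 levels were within the range of the other samples.

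The OVA-specific OT-I receptor, the usual reference for T cells against this antigen, uses V segments of the Trav14 and Trbv12 families. Of 9 Trav14 rows, 5 had reads, each in 1 or 2 samples. The highest was Trav14n-3 at 89.4 in a Nr2f6-/- IgG2b sample. Trbv12-1 had reads in 7 samples, with 141 in a Nr2f6-/- IgG2b sample and 88.2 in a Nr2f6-/- αPD-L1 sample as its highest. Trbv12-2, 87.4% identical to Trbv12-1, had reads in 8 samples and reached 143 in a Nr2f6-/- αPD-L1 sample and 119 in a Nr2f6+/+ αPD-L1 sample. The groups overlapped for both rows, and neither passed the test in any comparison.

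The alpha chain J rows were dominated by Traj18, the J segment that invariant NKT cells use. It had reads in all 18 samples with a mean of 601 normalized counts and made up a median of 69.4% of the Traj level of a sample. Of the 21 receptor rows tested, only Tcrg-C2 had a higher mean, at 1576 normalized counts, and the next Traj row, Traj27, was at 125. Levels were not scaled by length, since the kit reads the 3′ end of a transcript. Traj18 lies 19.7 kb upstream of Trac, and over the 18 samples Pearson's r of their log2 values was -0.15. The source of the Traj18 reads, a joined receptor transcript or another, was not tested. The V partner of Traj18 in invariant NKT cells, Trav11, had no read in any sample, nor did the d copy, Trav11d. A count of 0 in a sample allows up to 2.46 to 3.64 normalized counts, depending on its depth. Zbtb16, the transcription factor of NKT cells, had reads in 1 sample, at 0.999, Klrb1c in 13, up to 209, Klra8 in 5 and Ncr1 in 4. The other 3 of the 7 listed NKT and NK cell markers, Klrk1, Eomes and Klre1, had reads in all 18 samples, with medians of 2094, 1222 and 939 normalized counts. The MAIT segments were as sparse. Trav1 was at 16.7 and 160 in 2 samples, and Traj33 had none.

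**Figure D2:**
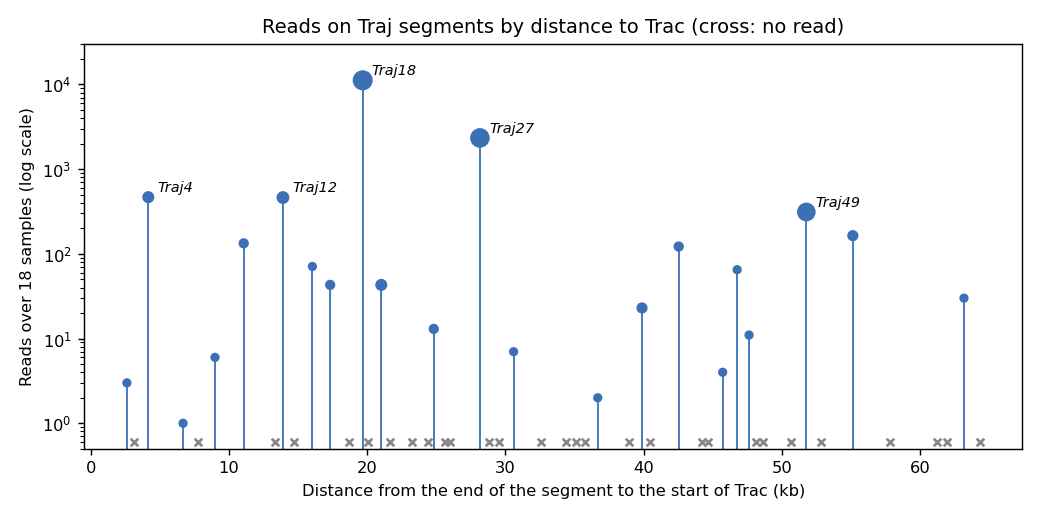
Reads over the 18 samples on each of the 51 Traj segments (y axis, log scale) against the distance from the segment's end to the start of Trac (x axis, kb), with larger points for reads in more samples and a cross for no read. Traj18 held 11178 reads and Traj27 held 2335, and rows without reads lie at all distances.

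Reads did not follow distance to Trac in a simple order. Within 20 kb, 9 of 14 Traj rows had reads, between 20 and 40 kb 6 of 19, and from 40 kb on 7 of 18. Without Traj18, these held 1186, 2423 and 708 reads.

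Traj18 was the receptor row that changed with treatment in Nr2f6-/- mice. In Nr2f6-/- IgG2b its normalized counts were 55.2, 213 and 121. In Nr2f6-/- αPD-L1 the lowest, median and highest values were 259, 655 and 1085, so the groups did not overlap. The mean was 130 ± 79.3 (SD, n = 3) with IgG2b and 703 ± 297 (SD, n = 6) with αPD-L1, a 5.42-fold difference of the means. On the log2(normalized count + 1) scale the difference was 2.50 (SE 0.48, 95% interval 1.51 to 3.49, limma adjusted p = 0.0124). Among all 11992 genes tested, 0.325% passed the threshold of 0.05 in this comparison, and 1 of the 21 receptor rows did. Per 1000 Trac counts the ranges met, at 3.12 to 10.8 with IgG2b and 10.7 to 68.5 with αPD-L1. The call was lost with the first library set alone, where the difference was 2.22 (adjusted p = 0.151), and without Nr2f6-/- IgG2b replicate 1, the lowest sample, where it was 1.99 (adjusted p = 0.166). It was also lost without replicate 3 of that group (2.55, adjusted p = 0.0650), and the macrophage list given above moved with treatment. The summed level of the 7 NKT and NK cell markers was 3312 to 5018 in Nr2f6-/- IgG2b and 4823 to 6726 in Nr2f6-/- αPD-L1, which overlapped. In the same samples Cd4, Cd8a and Cd8b1 summed to 28182 to 29626 with IgG2b and 34080 to 42561 with αPD-L1, without overlap. The platelet sum was 268 to 703 and 0 to 158, also without overlap. The remaining marker lists, among them the CD3 genes and the alpha and beta constant and D genes, overlapped. The part of these sums was not tested.

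In Nr2f6+/+ mice the same comparison was smaller and did not pass. Traj18 was at 664, 508 and 397 with IgG2b, and the lowest, median and highest values with αPD-L1 were 381, 634 and 1272. The groups overlapped, with a log2 difference of 0.45 (SE 0.48, adjusted p = 0.899). No receptor row passed in Nr2f6+/+ mice, where 0.242% of all genes did. The difference of the treatment effects between genotypes was 2.05 for Traj18 (SE 0.68, unadjusted p = 0.00548, limma adjusted p = 0.974), with 0% of all genes past the threshold and 596 at an unadjusted p under 0.05. An effect in Nr2f6-/- mice beyond that in Nr2f6+/+ mice was therefore not shown after adjustment.

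With IgG2b, Traj18 separated the genotypes. All 3 Nr2f6-/- samples lay below all 3 Nr2f6+/+ samples, 55.2 to 213 against 397 to 664. The log2 difference was -2.17 (SE 0.56, unadjusted p = 5.2e-04, limma adjusted p = 0.48), which did not pass, as for 0% of all genes, of which 641 had an unadjusted p under 0.05. Of 17 alternatives 1 passed, DESeq2 on the recovered reads (adjusted p = 0.0459), while edgeR on the same reads gave an adjusted p of 0.989. Some marker lists of other cells separated the same 6 samples, and some did not. The NKT and NK cell sum overlapped, at 3312 to 5018 in Nr2f6-/- (median 3754) and 2932 to 4016 in Nr2f6+/+ (median 3114). The B cell sum overlapped too, at 2384 to 3926 and 2603 to 6952. The macrophage sum was 7590 to 11146 in Nr2f6-/- and 13865 to 17021 in Nr2f6+/+, the platelet sum 268 to 703 and 2300 to 2611, and the melanoma sum 1156 to 2336 and 2495 to 4665 normalized counts, and their part was not tested. Groups without overlap were common here, at 14.2% of the genes tested, and 3 of the 21 receptor rows were among them (Traj18, Tcrg-C2 and Tcrg-C3). Trac did not separate the genotypes, with 17700 to 19765 in Nr2f6-/- and 11961 to 18809 in Nr2f6+/+, nor did the summed CD3 genes. Other T cell sums did. The alpha and beta constant and D genes summed to 77815 to 80101 in Nr2f6-/- and 55144 to 67163 in Nr2f6+/+. Cd4, Cd8a and Cd8b1 summed to 28182 to 29626 and 22479 to 27592. Rag1, Rag2, Dntt, Ptcra and Cd1d1 summed to 87.4 to 152 and 236 to 267, and the part of these sums was not tested. Both Traj18 comparisons that separate rest on the same 3 Nr2f6-/- IgG2b samples. With αPD-L1 the genotypes overlapped, with a log2 difference of -0.13 (SE 0.39, adjusted p = 0.947), and it was -0.67 within the first library set and 0.42 within the second.

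**Figure D3:**
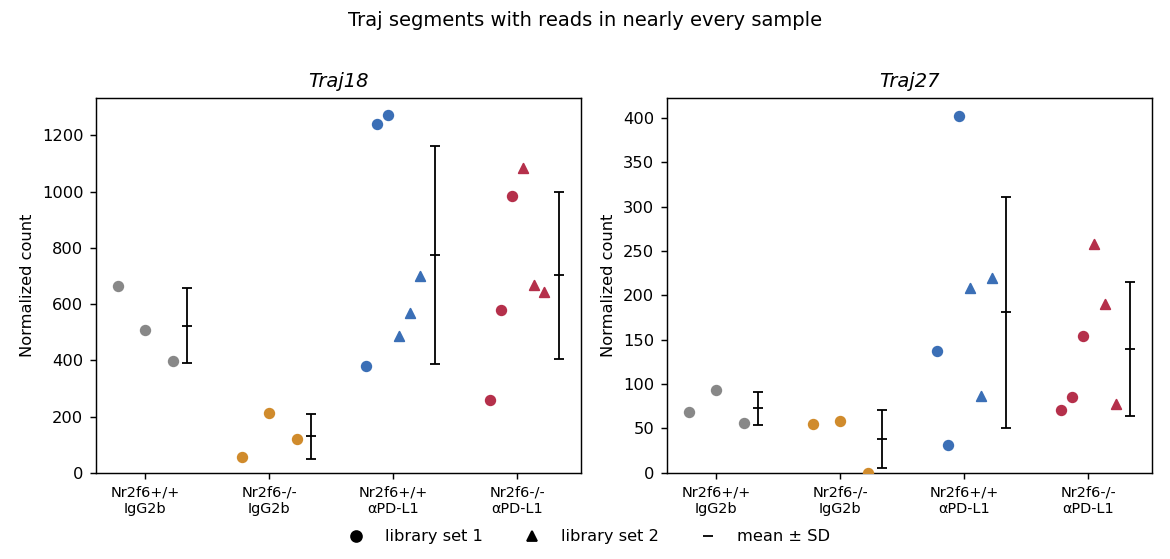
Normalized counts of Traj18 and Traj27 in each sample of the 4 groups, with circles for library set 1, triangles for library set 2 and bars for the mean ± SD. Traj18 was between 55.2 and 213 in the 3 Nr2f6-/- IgG2b samples and at 259 or more in the other 15.

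Traj27, the second Traj row in level, had the same order of group means, lowest in Nr2f6-/- IgG2b. It had reads in 17 samples. In Nr2f6-/- IgG2b it was at 55.2, 58.4 and 0, and in Nr2f6-/- αPD-L1 its lowest, median and highest values were 70.7, 120 and 258. These groups did not overlap, but the log2 difference of 3.06 (SE 1.12, adjusted p = 0.318) did not pass, and the value rests in part on the sample at 0. Of the 21 receptor rows, 2 did not overlap in this comparison (Traj18 and Traj27), against 5.12% of all genes. In Nr2f6+/+ mice Traj27 was at 68.5, 92.8 and 56.4 with IgG2b and between 31.6 and 403 with αPD-L1. Without overlap were 0 of the 21 rows there, against 4.54% of all genes.

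The other tested Traj rows were Traj4, Traj12 and Traj49. Traj4 was at 0 in all 6 IgG2b samples and had reads in 4 of 12 αPD-L1 samples, the highest of them at 78.9, 110 and 227. All 4 belonged to the second library set, which holds no IgG2b sample. In the first library set Traj4 was at 0 in every sample of both treatments. Among αPD-L1 samples its reads thus came only from the second library set, where treatments cannot be compared. The limma test did not pass, and DESeq2 called it in both genotypes (adjusted p = 2.34e-04 in Nr2f6+/+ and 1.25e-04 in Nr2f6-/-), from groups in which most samples were at 0. Traj12 had reads in 5 samples, up to 181. Traj49 had reads in 15 samples, up to 69.7. No fold is given for Traj4, since its control samples were all at 0.

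The gamma and delta rows were led by Tcrg-C2, a constant gene of the gamma chain at chr13:19304649-19307551 on the minus strand. It was read in all 18 samples, between 772 and 2580 normalized counts, and made up 68.3% to 97.8% of the summed level of the 5 gamma and delta constant genes. It stood at 4.53% to 19.3% of the Trac level. The gamma V row Trgv2 lies 29.02 kb from Tcrg-C2 on the same strand and had reads in 16 samples, between 0 and 31.7 per 100 Tcrg-C2 counts. The mean over the samples was 1576 normalized counts for Tcrg-C2, 88.5 for Tcrg-C4, 65.0 for Tcrg-C1, 60.6 for Trdc and 13.2 for Tcrg-C3. In single samples Tcrg-C1 was listed at up to 333, Tcrg-C4 at up to 296, Tcrg-C3 at up to 150 and Trdc, the constant gene of the delta chain, between 1.80 and 273 normalized counts.

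Gamma and delta V rows other than Trgv2 were almost empty. Tcrg-V3 had reads in 4 samples, with 214 and 48.5 as its highest. Tcrg-V7 was at 44.9 in 1 sample, Trdv2-1 at 3.12 in 1 and Trdv1 at 1.04 in 1. Defining genes of gamma-delta T cells were mostly absent. Of the 11 listed, Il23r was at 0 in all samples, Sox13 and Il17a had reads in 1 sample each, and Blk in 2. The 3 that passed the filter were Maf, Tmem176a and Tmem176b, which other cells in tumors also express. None of them passed the test in any comparison.

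Tcrg-C2 had treatment differences of opposite sign in the genotypes, and none passed. In Nr2f6+/+ IgG2b it was at 945, 1106 and 1521 and in Nr2f6-/- IgG2b at 2407, 1530 and 2574, so that the genotypes did not overlap. The log2 difference was 0.86 (SE 0.36, unadjusted p = 0.0234, limma adjusted p = 0.884). With αPD-L1 the lowest, median and highest values were 772, 1739 and 2580 in Nr2f6+/+ and 905, 1248 and 1962 in Nr2f6-/-, which overlapped. The difference was -0.42 (SE 0.25, adjusted p = 0.624). αPD-L1 minus IgG2b was 0.51 in Nr2f6+/+ (SE 0.31, adjusted p = 0.792) and -0.77 in Nr2f6-/- (SE 0.31, adjusted p = 0.382), and the difference between these effects was -1.28 (SE 0.44, unadjusted p = 0.00668, adjusted p = 0.974).

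Trgv2 had the smallest p of the receptor rows between the genotypes with αPD-L1. Its lowest, median and highest values were 9.44, 201 and 554.5 in Nr2f6+/+ and 0, 41.4 and 208 in Nr2f6-/-. The groups overlapped, and the log2 difference was -2.92 (SE 1.27, adjusted p = 0.447). It was -5.17 within the first library set and -0.66 within the second. With αPD-L1, 0.175% of all genes passed between the genotypes and none of the 21 receptor rows, and 0.592% of all genes and 0 receptor rows did not overlap. Tcrg-C3 was at 0, 0 and 1.04 in Nr2f6-/- IgG2b and at 3.51, 150 and 1.66 in Nr2f6+/+ IgG2b, levels mostly at or near the floor of 3 reads.

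**Figure D4:**
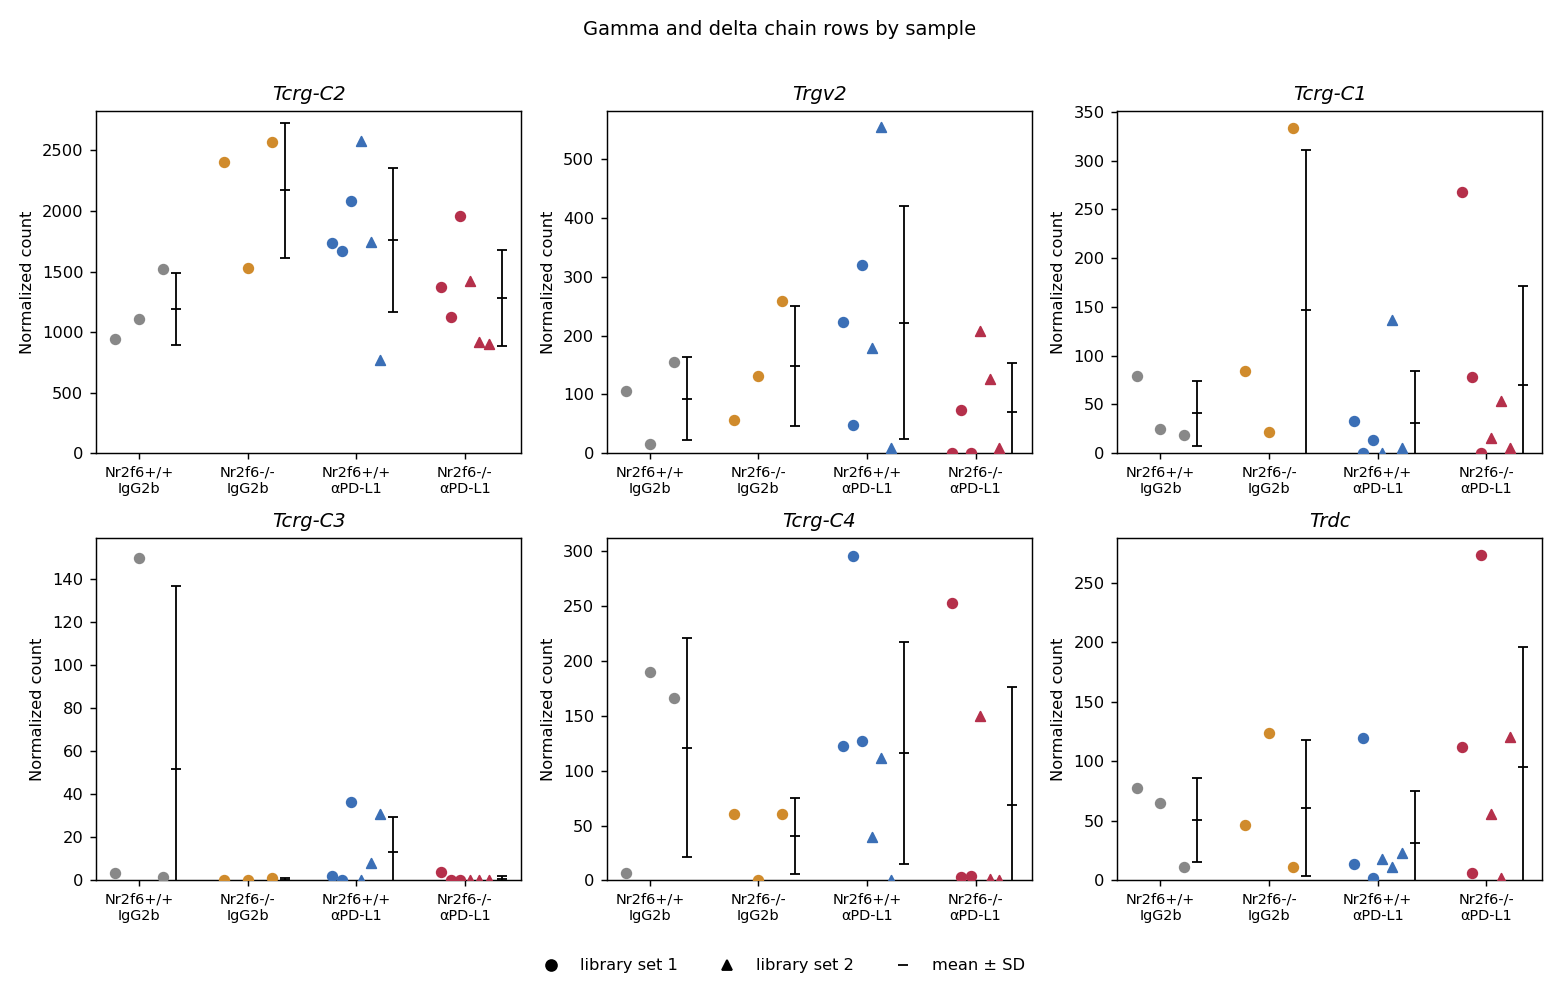
Normalized counts of 6 gamma and delta chain rows in each sample, with circles for library set 1, triangles for library set 2 and bars for the mean ± SD, cut at 0 where they would fall below it. Tcrg-C2 was between 772 and 2580 in all samples, and the other rows fell to 1.80 or less in at least 1 sample.

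The 21 rows that passed the filter of a mean of 10 normalized counts did not share a direction. Only 3 of them had reads in all 18 samples, and 12 were at 0 in 9 or more samples. Just inside the filter were Trav7-3 (mean 12.2, 4 samples) and Trbv3 (10.3, 2 samples), and just outside Trav6-1 (9.99, 1 sample) and Trav1 (9.79, 2 samples). In Nr2f6-/- mice 9 rows were higher and 12 lower with αPD-L1, with a median log2 difference of -0.09, against -0.04 over all genes tested. In Nr2f6+/+ mice 12 were higher and 9 lower, with a median of 0.45 against -0.10. Between the genotypes, 13 rows were higher and 6 lower in Nr2f6-/- mice with IgG2b, and 7 higher and 13 lower with αPD-L1. Rows without a difference are left out of these counts. The medians between the genotypes were 0.95 with IgG2b against -0.06, and -0.13 with αPD-L1 against -0.00486, values that rest largely on rows at 0 in most samples. The comparisons share samples, so these counts are not independent. Trbv29 is an example, with 143, 96.1 and 0 in Nr2f6-/- IgG2b, 0, 13.55 and 0 in Nr2f6+/+ IgG2b and 0 in all 12 αPD-L1 samples. Its log2 difference with treatment in Nr2f6-/- mice was -4.59 (SE 1.42, adjusted p = 0.222), and without Nr2f6-/- IgG2b replicate 3, the sample at 0, it was -6.88 (adjusted p = 0.0409).

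**Figure D5:**
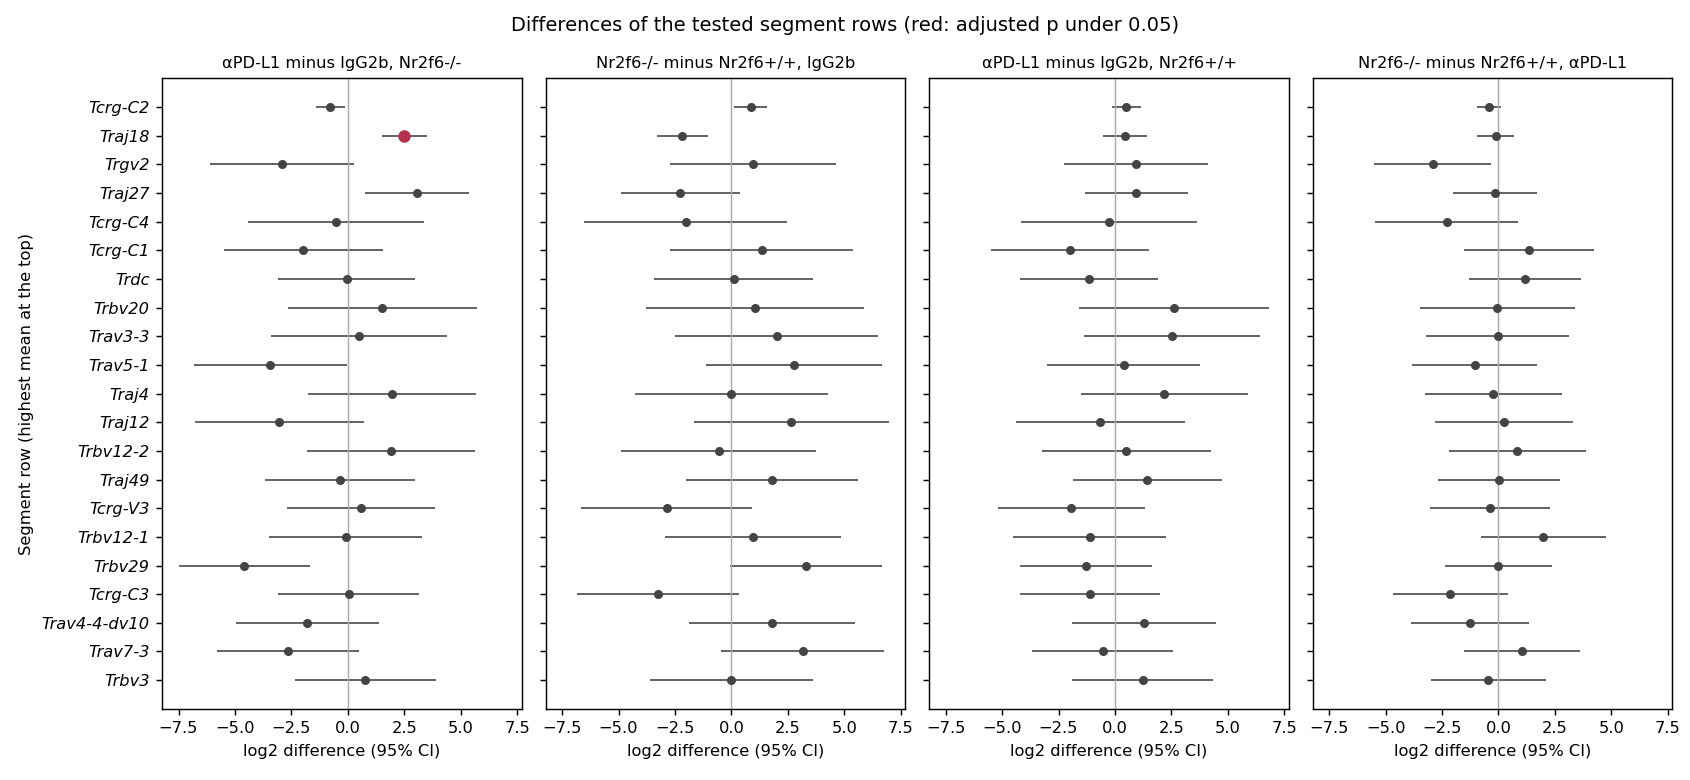
log2 differences with 95% intervals of the 21 tested receptor rows in the 4 comparisons, on the log2(normalized count + 1) scale, with rows ordered by mean level and red for an adjusted p under 0.05. Traj18 in Nr2f6-/- mice, at 2.50, is the red point, and the rows other than Tcrg-C2 and Traj18 have wide intervals.

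The constant genes of the alpha and beta chains were read in every sample. Trac, Trbc1 and Trbc2 passed in none of the 5 comparisons. Trbc2 was between 34120 and 70055 normalized counts, and with IgG2b it was 36592 to 40722 in Nr2f6+/+ and 51770 to 53763 in Nr2f6-/-, without overlap. Rag1, which cuts the segments during joining in the thymus, was at 0 in every sample, and Rag2 and Ptcra, a part of the receptor of immature T cells, had reads in 1 sample each. Of the 2 other genes of this list, Dntt, which adds bases at the joins, had reads in 10 samples, up to 85.5, and Cd1d1, which presents lipids to NKT cells, in all 18, with a median of 119. In bulk samples, fewer cells of a type and less RNA per cell cannot be told apart for any of these rows.

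The genes most like Trdc over the 18 samples, by Pearson's r of log2 values among the 11992 genes, were Cipc (0.78), Tmem42 (0.77) and Selk (0.75). Those most like Trbv20 were Ino80c (0.77), Mfn2 (0.76) and Triobp (0.73). These values are descriptions of 18 libraries that share group and depth.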

How the data were processed

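RNA of CD3+ TILs was sequenced in 18 samples with QuantSeq 3′ libraries on an Ion Torrent instrument. Per the study's methods, reads were trimmed with Cutadapt and Trimmomatic, reads under 22 nucleotides were removed, and the rest were mapped to mm10 with STAR, then Bowtie2, with 1 (primary) position kept per multi-mapping read, and HTSeq-count gave the counts. The annotation and strand setting are not given in the sources used here, and reads on near-identical V copies are uncertain. The authors deposited a normalized signal per gene, the count scaled by a size factor of its sample. Every value was a whole multiple of a step, within 0.01 of a whole number for 100% of values, so whole reads were recovered. In Nr2f6-/- αPD-L1 replicates 4 and 6 the step was 0.999 and 1.002, so near 1 that the recovery is less certain there, and the edgeR and DESeq2 fits rest on these reads. Floors (3 reads) cover counting error only, and the intervals of the log2 differences come from the spread between samples.

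The test was limma 3.58.1 in R 4.3.3 with eBayes and its trend option on log2(normalized count + 1), 1 mean per group over all 18 samples, for the 11992 genes with a mean of at least 10. It was two-sided with Benjamini-Hochberg adjustment and a threshold of 0.05. edgeR 4.0.16 and DESeq2 1.42.0 on recovered reads, other pseudocounts, filters and scalings, the groups compared alone, the library sets, a replicate block and each replicate left out were alternatives. The test was also run on simulated data in which the changed genes were drawn from the more abundant ones. That run does not show how changes in rows at 0 in most samples are called. All 210 symbols matched GENCODE release 21. The labels do not say which samples come from separate mice, and p-values measure the spread between these samples. Named rows were the constants, gamma and delta V rows with reads, invariant and OT-I segments, the highest rows of each family, rows past the threshold, and per comparison the row with the smallest p and the largest differences without overlap. Rows, lists and tests were chosen with earlier results of these data known.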

Additional observations from a re-analysis of the deposited data

Results flagged for a closer look

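In the groups of 6, 52 sets of values (the 21 tested rows and 5 sums or counts, on the log2 scale except for the count of rows) were searched for a sample far from the other 5 (Dixon's ratio above 0.625), and 15 were flagged, where chance flags about 5% of well-behaved sets. The test is not made for values with many zeros, and 12 of the 15 were a highest sample, of which 11 were the only sample of their group with reads. In Nr2f6+/+ αPD-L1 replicate 6, Tcrg-C2 was lowest at 772, the sum of the gamma and delta constants at 831 and Tcrg-C4 at 0, while Trbv12-1 was highest at 2.57. In Nr2f6+/+ αPD-L1 replicate 2, Trbv3 was highest at 161 and Trav4-4-dv10 at 195. In replicate 5 of that group Tcrg-V3 was highest at 48.5 and Traj12 at 46.003, and in replicate 3 Trav5-1 at 85.7. In Nr2f6-/- αPD-L1, Traj12 was highest at 138 and Tcrg-V3 at 9.90 in replicate 5, Trav7-3 at 75.3 in replicate 3, Trbv3 at 24.1 and Trav5-1 at 3.01 in replicate 6, and Tcrg-C3 at 3.72 in replicate 1.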

How the results depend on the processing

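One receptor row was called with αPD-L1 against IgG2b in Nr2f6-/- mice and none in the other 4 comparisons. In Nr2f6-/- mice the number was 0 with the first library set alone, without a filter (Traj18 adjusted p = 0.0561) and with the groups compared alone (0.143), and 0 to 1 when leaving out each replicate. The fit without Nr2f6-/- IgG2b replicate 3 called Trbv29 and not Traj18. With DESeq2 the number was 2 in Nr2f6-/- mice, 1 in Nr2f6+/+ mice (Traj4) and 1 between genotypes with IgG2b (Traj18). Traj18 kept its direction with treatment in Nr2f6-/- mice in all 20 alternatives run for it, with log2 differences of 1.99 to 2.96, and passed in 15. Over all genes, the alternatives called 13 to 230 (39 in the analysis as reported) in that comparison, 6 to 94 (29) in Nr2f6+/+ mice, 4 to 184 (21) between genotypes with αPD-L1, 0 to 88 (0) with IgG2b and 0 to 76 (0) for the difference of effects. The highest number was from DESeq2 in each, and the cause was not tested. At 1 read in any sample 94 rows were present, and 82 with at least 3 reads in at least 1.

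The groups share replicate numbers, but the 21 pairs of samples with the same number had correlations of their deviations between -0.03 and 0.04, with 0 over 0.1, and 5 of 18 samples correlated best with their own number. With a replicate block 1 row was called in Nr2f6-/- mice (Traj18, adjusted p = 0.0265) and 0 in the other comparisons, and 12 genes against 29 in Nr2f6+/+ mice. The second library set alone was added after seeing the data. Depth limits what a row at 0 says to fewer than 3 reads.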
